A study of Populus yunnanensis with 9 samples.

Results

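The 9 genes described here encode the 3 enzymes that open phenylpropanoid metabolism, and they were taken by identifier from a list of 5 genes for phenylalanine ammonia-lyase (PAL), 2 for cinnamate 4-hydroxylase (C4H) and 2 for 4-coumarate:CoA ligase (4CL). They are 9 of the 41335 genes in the deposited tables. Their names come from that list, because the tables hold identifiers only. Transcripts were measured by RNA sequencing in leaves of Yunnan poplar (Populus yunnanensis), with 3 libraries in each of 3 groups. The Cd + N treatment received cadmium and ammonium bicarbonate up to 480 mg Cd and 360 mg N per kg of dry soil. The Cd treatment received cadmium alone up to the same 480 mg, and the control (CK) received neither. All groups were potted cuttings from wild trees, labelled as seedlings of 4 months, with treatments given every 5 d over 60 d and leaves near the apex taken at the end. The cuttings came from 15 trees, and the labels do not say which trees or how many plants stand behind a library. The p-values therefore measure the spread between these libraries, which may be partly technical or between trees.

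PAL removes ammonia from phenylalanine and releases cinnamic acid, the step at which carbon leaves amino acid metabolism for phenylpropanoids. C4H, a cytochrome P450 of the endoplasmic reticulum, hydroxylates cinnamic acid to p-coumaric acid, and 4CL joins p-coumaric acid to coenzyme A. The resulting thioester feeds lignin, which stiffens the walls of vein xylem, and also flavonoids and condensed tannins, which are abundant in poplar leaves. Each step is encoded by a small gene family in poplar, and the copies differ in where and when they are used.

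Between 31952278 and 40101176 reads per library were counted on genes, and 27378 genes passed the filter on low counts, all 9 entry genes among them. Cd + N replicate 2 stood apart from the other libraries over the whole transcriptome, with the lowest level of 23.5% of the tested genes and the highest level of 22.3%. Cd replicate 3 was ordinary over the whole transcriptome, being lowest for 11.8% of the tested genes, but it held the lowest level of 8 of the 9 entry genes. Leaf mesophyll markers were not checked here, because no annotation was used. The secondary wall cellulose synthase list, taken as a marker of vein xylem, was detected in every library and is described with the later steps.

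Levels are given as FPKM, that is reads scaled to the length of the gene and to the counted reads of the library. The gene lengths behind FPKM, recovered from the tables, were 2124 to 2148 bases for PAL1, PAL3, PAL4 and PAL5 but 4242 bases for PAL2, and the length of C4H1 was 2 times that of C4H2. What these lengths measure was not established, so FPKM levels were compared between genes only among those 4 PAL genes and between 4CL3 and 4CL5, with 3036 and 3045 bases. Among the 4 PAL genes the mean over the 9 libraries was highest for PAL1, at 29.5 FPKM, followed by PAL3 at 21.0, PAL4 at 4.15 and PAL5 at 0.607 FPKM. The ranges of PAL1 and PAL3 over the libraries overlapped widely, and PAL4 was below PAL1 and PAL3 in every library. The mean of 4CL3 was 4.604 FPKM and that of 4CL5 was 3.36 FPKM, and their ranges also overlapped. The means of the other genes, each on its own length, were 15.6 FPKM for PAL2, 13.05 FPKM for C4H1 and 11.96 FPKM for C4H2.

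**Figure D1:**
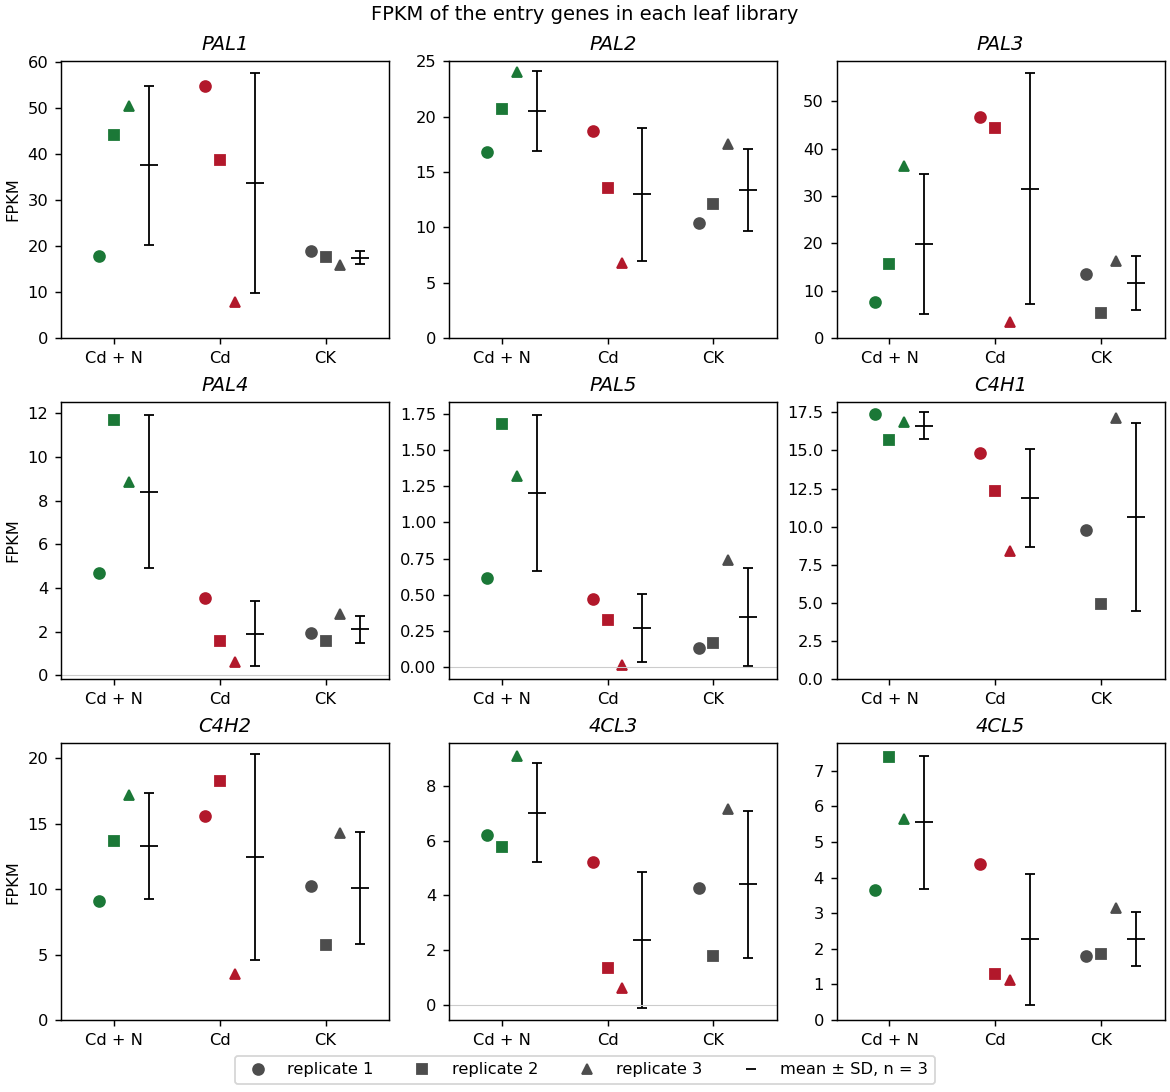
FPKM of the 9 entry genes in each of the 9 libraries, 1 panel per gene with its own linear axis and the groups Cd + N, Cd and CK from left to right; each point is a library, its shape gives the replicate number, and black bars show the group mean ± SD (n = 3). The 3 Cd + N libraries of PAL4 lie between 4.71 and 11.7 FPKM, above all Cd and CK libraries, and Cd replicate 3 is the lowest point in all panels except that of C4H1.

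PAL4 (Potri.010G224100.v3.0) showed the clearest difference between the groups. Its level was 4.71, 11.7 and 8.84 FPKM in Cd + N replicates 1, 2 and 3, against 3.56, 1.59 and 0.603 FPKM under Cd treatment and 1.94, 1.60 and 2.81 FPKM in CK. Every Cd + N library was above every Cd and every CK library, while Cd and CK overlapped. The group means were 8.42 ± 3.52 FPKM in Cd + N, 1.92 ± 1.51 FPKM in Cd and 2.12 ± 0.625 FPKM in CK (SD, n = 3 each). In edgeR's quasi-likelihood test with Benjamini-Hochberg adjustment over 27378 genes, PAL4 was 4.30-fold higher in Cd + N than in Cd (log2 fold change 2.10, SE 0.65, 95% interval 0.63 to 3.58), with an adjusted p of 0.264. It was 3.89-fold higher in Cd + N than in CK (log2 fold change 1.96, SE 0.64, 95% interval 0.49 to 3.43), with an adjusted p of 0.193. Neither difference passed the threshold of 0.05. DESeq2 on the same counts gave PAL4 an adjusted p of 0.0275 against Cd and 0.0294 against CK, under the threshold in both, in comparisons where it called 3.07% and 6.13% of the genes it tested. Without Cd replicate 3 the log2 fold change of Cd + N against Cd was 1.66, and without Cd replicate 1 it was 3.05, with adjusted p of 0.514 and 0.0921 in edgeR. Without Cd + N replicate 2, the highest PAL4 library, it was 1.79 against Cd and 1.64 against CK. The adjusted p were then 0.486 and 0.401 in edgeR. In bulk leaf RNA such a difference can come from more cells that express the gene or from more RNA per cell, and the data cannot tell these apart.

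PAL5 (Potri.010G224200.v3.0), whose identifier follows directly on that of PAL4, was the lowest of the 4 PAL genes of like length. Its level was 0.618, 1.68 and 1.32 FPKM in Cd + N, against 0.472, 0.326 and 0.0132 FPKM in Cd and 0.129, 0.169 and 0.740 FPKM in CK. The lowest value was 1 read in Cd replicate 3, where the other libraries had 11 to 132 reads. Cd + N was above Cd in every library, but Cd + N replicate 1 was below CK replicate 3. The log2 fold change was 2.14 (SE 1.03, adjusted p = 0.437 by edgeR) for Cd + N against Cd and 1.78 (SE 1.014, adjusted p = 0.397 by edgeR) for Cd + N against CK. Leaving out Cd replicate 1 gave 2.93 for the comparison with Cd, and leaving out CK replicate 3 gave 2.94 for that with CK, with adjusted p of 0.305 and 0.384 in edgeR. Neighbouring copies of a gene can share reads, and how the authors' counting treated such reads is not known, so the split between PAL4 and PAL5 is uncertain.

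PAL1 (Potri.006G126800.v3.0) and PAL3 (Potri.016G091100.v3.0), the 2 most abundant of the 4 PAL genes of like length, had another pattern, in which Cd replicates 1 and 2 were high and Cd replicate 3 was low. PAL1 was at 17.9, 44.2 and 50.3 FPKM in Cd + N, 54.8, 38.6 and 7.70 FPKM in Cd, and 18.8, 17.5 and 15.9 FPKM in CK. The CK libraries lay close together, and the Cd libraries fell on both sides of them. PAL3 was at 7.66, 15.5 and 36.3 FPKM in Cd + N, 46.7, 44.5 and 3.42 FPKM in Cd, and 13.5, 5.29 and 16.3 FPKM in CK. The highest PAL3 library was 13.7 times the lowest, and both were Cd libraries. The log2 fold change of PAL3 was -0.68 (SE 0.91) for Cd + N against Cd and 0.73 (SE 0.91) for Cd + N against CK, with adjusted p of 0.786 and 0.709 by edgeR, and without Cd + N replicate 3 these were -1.45 and -0.0376. In Cd against CK it was 1.40 (SE 0.92, adjusted p = 0.641), the largest positive value of the 9 genes in that comparison, and that of PAL1 was 0.93 (SE 0.66, adjusted p = 0.665). Without Cd replicate 3 these were 1.94 for PAL3 and 1.41 for PAL1, with adjusted p of 0.754 and 0.724 in edgeR, and that of PAL1 was 0.26 without Cd replicate 1. Cd + N against CK gave 1.07 for PAL1 (SE 0.66, adjusted p = 0.428 by edgeR), and Cd + N against Cd gave 0.13 (SE 0.65, adjusted p = 0.948).

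PAL2 (Potri.008G038200.v3.0) varied least within groups. Its level was 16.8, 20.7 and 24.1 FPKM in Cd + N, 18.7, 13.5 and 6.74 FPKM in Cd, and 10.4, 12.1 and 17.5 FPKM in CK. The Cd + N mean of 20.5 ± 3.63 FPKM was above 12.99 ± 6.002 FPKM in Cd and 13.4 ± 3.72 FPKM in CK (SD, n = 3 each), but single libraries overlapped in both comparisons. The log2 fold change was 0.66 (SE 0.39, adjusted p = 0.515 by edgeR) against Cd and 0.59 (SE 0.39, adjusted p = 0.459 by edgeR) against CK.

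No difference of a C4H gene between groups passed the test. C4H1 (Potri.013G157900.v3.0) was at 17.4, 15.7 and 16.9 FPKM in Cd + N, 14.9, 12.4 and 8.41 FPKM in Cd, and 9.77, 4.94 and 17.2 FPKM in CK. The Cd + N libraries were the most uniform, with an SD of 0.878 FPKM against 3.25 FPKM in Cd and 6.15 FPKM in CK, and every Cd + N library was above every Cd library in FPKM. On the TMM-scaled counts that were tested the 2 groups overlapped, since Cd replicate 1 has the lowest TMM factor, 0.912. The log2 fold change of C4H1 was 0.50 (SE 0.41) against Cd and 0.62 (SE 0.41) against CK, with adjusted p of 0.639 and 0.459 by edgeR. With CK replicate 3 left out the value against CK was 1.11, and with CK replicate 2 left out it was 0.28. C4H2 (Potri.019G130700.v3.0) was at 9.11, 13.7 and 17.2 FPKM in Cd + N, 15.6, 18.2 and 3.54 FPKM in Cd, and 10.3, 5.77 and 14.3 FPKM in CK. Like PAL1 and PAL3, it had 2 high Cd libraries and a low Cd replicate 3, and the 3 groups overlapped. Its log2 fold change was 0.11 (SE 0.58) against Cd and 0.37 (SE 0.58) against CK, with adjusted p of 0.953 and 0.772 by edgeR.

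Both 4CL genes had their highest group mean in Cd + N. 4CL3 (Potri.001G036900.v3.0) was at 6.20, 5.78 and 9.11 FPKM in Cd + N, 5.22, 1.32 and 0.590 FPKM in Cd, and 4.28, 1.77 and 7.16 FPKM in CK. Cd + N and Cd did not overlap, whereas CK replicate 3 was above 2 of the Cd + N libraries. The log2 fold change was 1.51 (SE 0.81, adjusted p = 0.472 by edgeR) for Cd + N against Cd, and it was 1.03 without Cd replicate 3 and 2.99 without Cd replicate 1. Cd + N against CK gave 0.65 (SE 0.79, adjusted p = 0.702), and Cd against CK gave -0.86 (SE 0.80, adjusted p = 0.747), the lowest value of the 9 genes there. This was -2.35 without Cd replicate 1 and -0.35 without CK replicate 3, with adjusted p of 0.0963 and 0.928 in edgeR. 4CL5 (Potri.003G188500.v3.0) was at 3.64, 7.38 and 5.63 FPKM in Cd + N, 4.37, 1.31 and 1.11 FPKM in Cd, and 1.81, 1.86 and 3.15 FPKM in CK. Every Cd + N library was above every CK library, and Cd replicate 1 was above the lowest Cd + N library. The log2 fold change of 4CL5 was 1.26 against Cd (SE 0.59, adjusted p = 0.426) and 1.26 against CK (SE 0.59, adjusted p = 0.315), both by edgeR. Its value against Cd was 0.90 without Cd replicate 3 and 2.31 without Cd replicate 1.

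Over the 9 genes together, Cd + N against Cd gave 8 positive and 1 negative log2 fold changes with a median of 0.66, where the median of all tested genes was -0.02. Of all tested genes, 13118 were positive and 14260 negative. With Cd replicate 3 left out, PAL1 and C4H2 also turned negative, each at -0.34. None passed the adjusted threshold, as for the whole table, where 0% of the tested genes passed. PAL4 was the 1 gene with an unadjusted p under 0.05, among 12.5% of all tested genes. The Cd + N libraries were all above the Cd libraries in 3 of the 9 genes, PAL4, PAL5 and 4CL3, where 9.67% of all tested genes were higher in this way. All 9 values were positive in Cd + N against CK, with a median of 0.73 beside -0.00247 for all tested genes, though PAL3 was at -0.0376 without Cd + N replicate 3. Of all tested genes, 13631 were positive and 13747 negative there. None of the 9 passed the adjusted threshold, which 0.267% of the tested genes, 73 in number, passed. When replicate numbers entered the fit as a block, 1442 genes passed and none of them was an entry gene. PAL4 had an unadjusted p under 0.05, among 17.1% of all tested genes, and PAL4 and 4CL5 were higher in every Cd + N library, as were 13.5% of all tested genes. These 2 comparisons share the Cd + N libraries. The 9 genes also varied together over the libraries, so their signs are not separate observations of a treatment. Cd against CK gave 5 positive and 4 negative values with a median of 0.00, none past the adjusted threshold, which 0% of the tested genes passed. None had an unadjusted p under 0.05, where 9.88% of all tested genes did, and all 9 overlapped between the groups, where 14.7% of all tested genes did not. DESeq2 called none of the 9 in Cd against CK, where it called 627 genes over the whole table. A p that misses the threshold does not show that levels were equal: the 95% interval of the log2 fold change in Cd against CK ran from -0.96 to 0.81 for PAL2, the narrowest, and from -2.69 to 1.97 for PAL5, the widest.

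**Figure D2:**
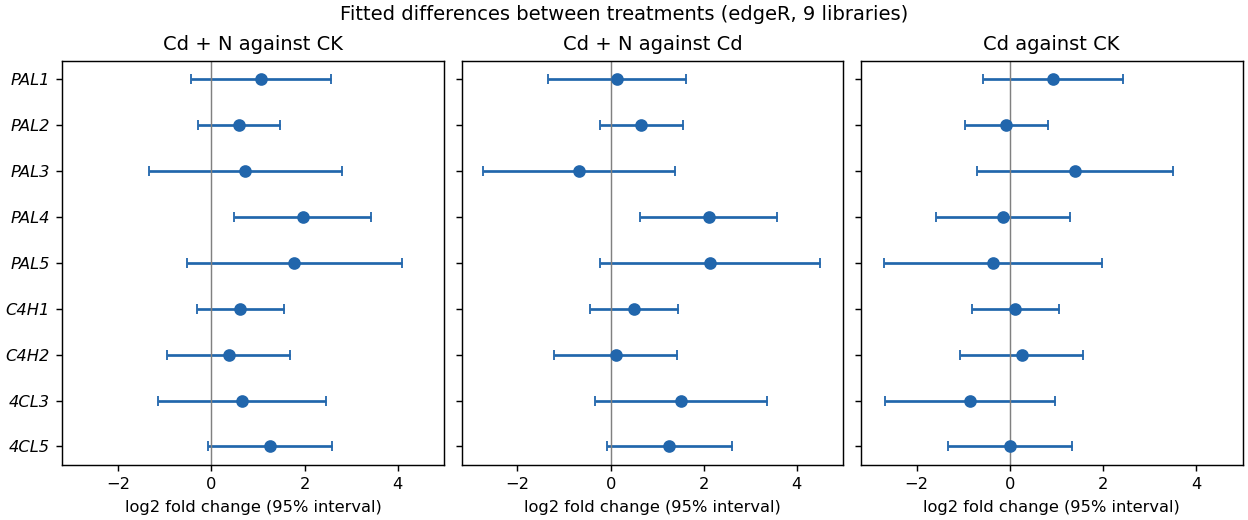
Log2 fold changes of the 9 entry genes with their 95% intervals from edgeR, in panels for Cd + N against CK, Cd + N against Cd and Cd against CK. In both Cd + N panels the interval of PAL4 alone lies above 0, with 1.96 against CK and 2.10 against Cd, and no gene passes the adjusted threshold.

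The entry genes were more variable between replicates than most genes. The median SD within groups was 0.92 log2 units of CPM, the count scaled to a common library total, over the 9 genes, beside 0.34 over all tested genes, and it ranged from 0.56 for PAL2 to 1.53 for PAL3. PAL3 was more variable than 97.1% of the tested genes and PAL2 more than 71.7%. The spread was widest in Cd, where the median SD of the entry genes was 1.39 log2 units beside 0.30 for all genes. It was 0.51 beside 0.30 in Cd + N and 0.64 beside 0.25 in CK. In Cd replicate 3 all 9 genes were below their own mean over the 9 libraries, with a median deviation of -1.81 log2 units, and in CK replicate 2 all 9 were below it, with a median of -0.84. In Cd replicate 1, Cd + N replicate 2 and Cd + N replicate 3 all 9 were above their own mean, with medians of 0.68, 0.74 and 1.02 log2 units. The median deviation of all tested genes was within 0.02 log2 units in every library.

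**Figure D3:**
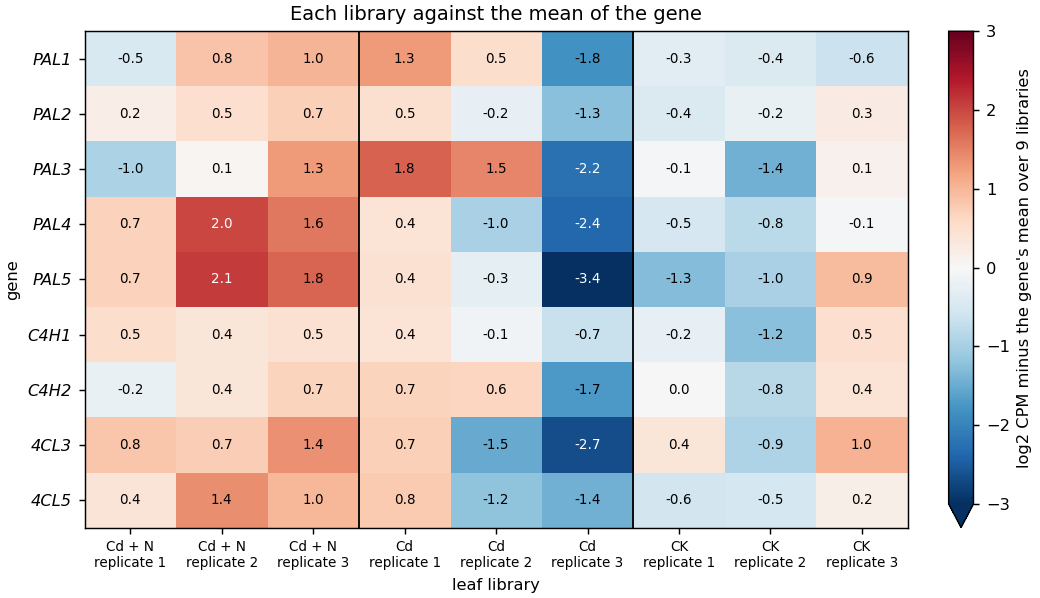
Deviation of each entry gene from its own mean over the 9 libraries, in log2 CPM, as a colour map with genes in rows and the libraries of Cd + N, Cd and CK in columns; red is above the mean, blue below, and the number in each cell is the deviation. The genes lie below 0 together in Cd replicate 3 and CK replicate 2 and above 0 together in Cd replicate 1 and in Cd + N replicates 2 and 3.

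The make-up of the PAL counts was described by shares within each library, which the overall level of the library does not enter. A share also falls when the counts on the other PAL genes rise. PAL4 and PAL5, summed because reads could be split between them, made up 8.27%, 11.7% and 7.001% of the counts on the 5 PAL genes in Cd + N replicates 1, 2 and 3. Their share was 2.81%, 1.71% and 2.45% in Cd, and 3.74%, 3.63% and 5.01% in CK. The 3 groups did not overlap, with Cd + N highest and Cd lowest, at means of 8.98% ± 2.42, 2.32% ± 0.563 and 4.13% ± 0.769 for Cd + N, Cd and CK (SD, n = 3 each). In level, PAL4 and PAL5 each overlapped between Cd and CK. The lowest Cd + N share, with a 95% Wilson interval of 6.56% to 7.47%, was above the highest CK share, with 4.46% to 5.63%, and these intervals cover counting error only. In Cd replicate 3 this share rests on 47 reads of 1920. The pair was chosen after its values were seen, so the shares are a description without a test. The share of PAL1 and PAL3 was 39.9%, 52.4% and 60.0% in Cd + N, 71.2%, 74.4% and 44.4% in Cd, and 58.8%, 46.9% and 45.7% in CK. Cd replicates 1 and 2 were above every other library, and Cd replicate 3 was below every library except Cd + N replicate 1.

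**Figure D4:**
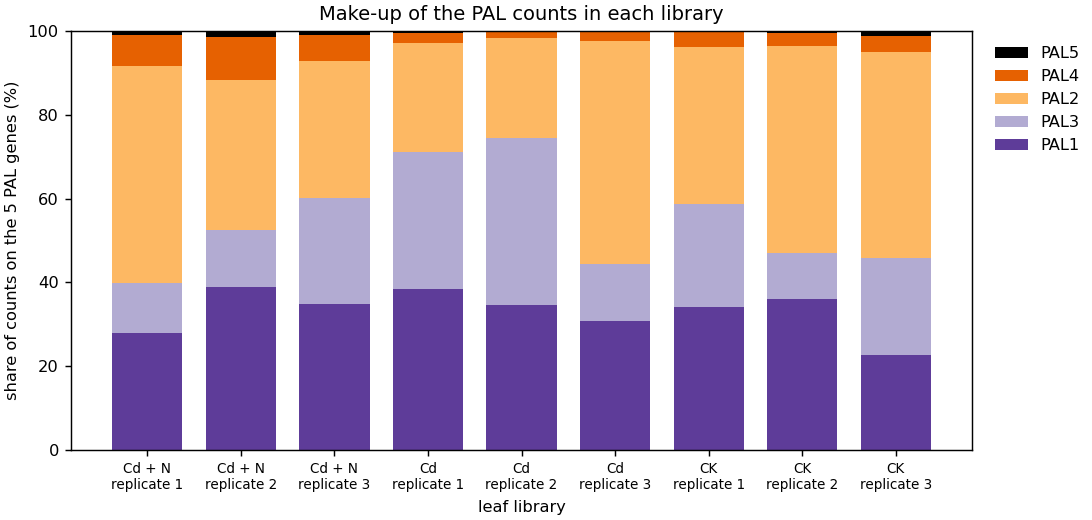
Share of each PAL gene in the counts on the 5 PAL genes, in percent, as stacked bars with 1 bar per library of Cd + N, Cd and CK from left to right. The PAL4 and PAL5 share at the top of the bars is 7.001% to 11.7% in Cd + N, 1.71% to 2.81% in Cd and 3.63% to 5.01% in CK.

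The entry genes varied together over the libraries, but not every pair of successive steps did so closely. All 36 pairs of entry genes had a positive Pearson's r in log2 CPM over the 9 libraries, from 0.43 to 0.96 with a median of 0.75, and 25 pairs had a Benjamini-Hochberg adjusted p under 0.05 over the 36 pairs in a two-sided exact permutation test. By Spearman's rho 11 pairs passed. The arrangements ran across the 3 groups, so a difference between groups enters these p-values. The share of pairs that pass among all tested genes was not computed. Over the other genes with a mean of at least 1 CPM, the mean r with the 9 entry genes had a median of -0.013. With Cd replicate 3 left out 8 pairs passed by r, with Cd + N replicate 3 left out 13 did, and with Cd + N replicate 2 left out 16 did. Without Cd replicate 2, 31 passed, and without each of the remaining libraries 17 to 20 did. The median r without Cd replicate 3 was 0.64. Much of the relation in these counts therefore rests on Cd replicate 3. After centring on the group means all 36 r stayed positive, with a median of 0.85, as a description without a test. The lowest r was between PAL3 and 4CL5, with r = 0.43 (adjusted p = 0.240) and rho = 0.40 (adjusted p = 0.328) in the exact permutation test, and r was 0.01 without the 2 libraries farthest from the median.

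The pair PAL3 and C4H2, encoding successive enzymes, had r = 0.94 (p = 1.65e-05, adjusted p = 0.000595) and rho = 0.95 (adjusted p = 0.00423) in the exact permutation test. It kept r = 0.94 without the 2 libraries farthest from the median of PAL3, and 0.93 without Cd replicate 3. Some other pairs of successive steps did not pass the exact permutation test. Among them, r was 0.59 for C4H2 and 4CL5 (adjusted p = 0.106) and 0.52 for PAL1 and C4H1 (adjusted p = 0.174). PAL4 and 4CL5, the first and the last of the 3 steps, had r = 0.96 (p = 8.27e-05, adjusted p = 0.00149) and rho = 0.97 (adjusted p = 0.00423) in the exact permutation test. Their r was 0.93 without the 2 farthest libraries and 0.95 without Cd replicate 3. Sets of genes were seen in the matrix after the values were known, and they are given as a description. Within PAL1, PAL3 and C4H2 the 3 r were 0.85 to 0.94, and within PAL2, PAL4, PAL5, 4CL3 and 4CL5 the 10 r were 0.84 to 0.96. Between these sets the 15 r were 0.43 to 0.81, and without Cd replicate 3 they were 0.10 to 0.60, against 0.70 to 0.93 and 0.65 to 0.95 within the sets. C4H1 had r of 0.52 to 0.76 with the other 8 genes and was placed in neither set. Without Cd replicate 3 its r was 0.63 to 0.75 with PAL2, PAL4, PAL5, 4CL3 and 4CL5. It was then 0.72 with C4H2, 0.49 with PAL3 and 0.37 with PAL1, so C4H1 was nearer to the set of PAL2 than to PAL1 and PAL3.

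**Figure D5:**
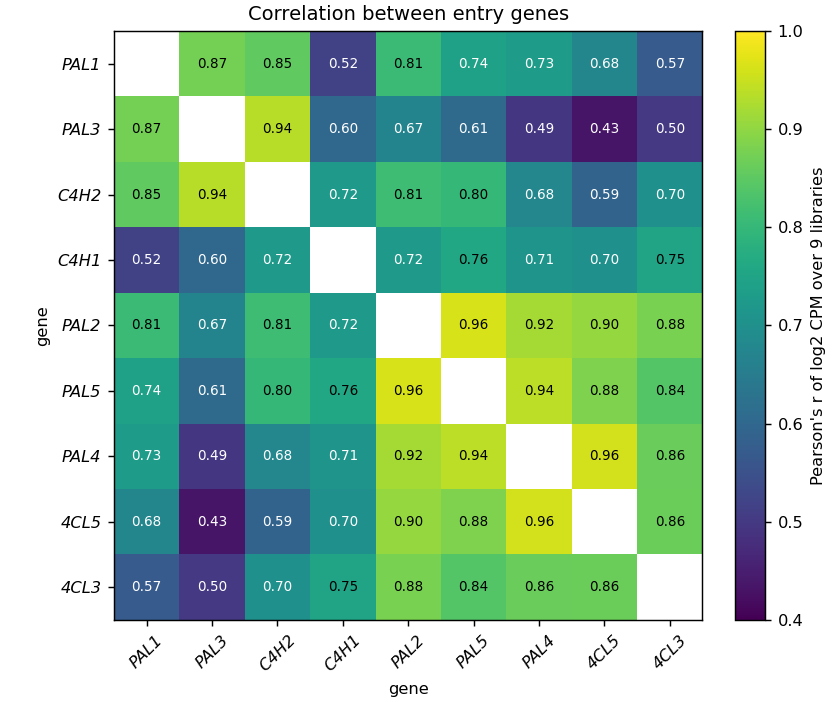
Pearson's r between the entry genes in log2 CPM over the 9 libraries, for all 36 pairs, as a colour map with genes in rows and columns and r printed in each cell. Values are 0.85 to 0.94 among PAL1, PAL3 and C4H2, 0.84 to 0.96 among PAL2, PAL4, PAL5, 4CL3 and 4CL5, and 0.43 to 0.81 between these sets.

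The genes whose pattern was most like each entry gene were sought among the genes with a mean of at least 1 CPM, by Pearson's r in log2 CPM over the 9 libraries and with no p. PAL2 and PAL5 were each other's closest match, with r = 0.96. PAL3 was the third closest to C4H2, with r = 0.94. For PAL1 the closest gene was Potri.002G173900.v3.0, and for PAL4 it was Potri.005G075900.v3.0, each with r = 0.98, and neither was looked up in an annotation. Cd replicate 3, low for 8 of the 9 entry genes, enters every r.

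A list of 13 genes for the later monolignol steps, which turn the 4CL product into lignin precursors, was set beside the entry genes. The list was drawn up by identifier and was not checked against an annotation. Cd + N against Cd gave 11 positive and 2 negative log2 fold changes on it with a median of 0.63. In 3 of the 13 the groups did not overlap and Cd + N was higher, as in 9.67% of all tested genes. None passed the adjusted threshold by edgeR. An unadjusted p under 0.05 was found for 4, all higher in Cd + N, beside 12.5% of all tested genes. DESeq2 called 2, both higher, and 3.07% of all genes it tested. Potri.001G042900.v3.0 had the smallest p, with 4.02, 5.59 and 6.17 FPKM in Cd + N, 2.51, 2.46 and 2.18 FPKM in Cd, and 2.84, 3.45 and 4.04 FPKM in CK. Its Cd + N libraries were all above the Cd libraries, by a log2 fold change of 1.18 (SE 0.22, adjusted p = 0.128 by edgeR). Next was Potri.008G136600.v3.0, with 1.497, 2.42 and 1.57 FPKM in Cd + N, 0.452, 1.23 and 0.644 FPKM in Cd, and 0.847, 1.33 and 0.780 FPKM in CK. Its Cd + N libraries were above all others, and the log2 fold change against Cd was 1.31 (SE 0.39, adjusted p = 0.251 by edgeR). Cd + N against CK also gave 11 positive and 2 negative values, with a median of 0.41. It had 1 unadjusted p under 0.05, beside 17.1% of all tested genes. Cd against CK gave 5 positive and 8 negative values with a median of -0.40. Its 1 unadjusted p under 0.05 was for a gene lower in Cd, beside 9.88% of all tested genes. By edgeR and by DESeq2 none passed the adjusted threshold in either comparison with CK. The summed TMM-scaled level of the list was 729.7, 1073 and 1004 CPM in Cd + N, 660, 497 and 298 CPM in Cd, and 481, 630 and 644 CPM in CK. Cd replicate 3 was lowest for this list too.

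The 5 genes listed as secondary wall cellulose synthases, enzymes that build the cellulose of lignified xylem walls, overlapped between the groups in all 3 comparisons. Their list was also drawn up by identifier and was not checked against an annotation. Their summed level was 7.31, 3.64 and 26.2 CPM in Cd + N, 29.5, 5.83 and 7.17 CPM in Cd, and 57.3, 13.8 and 53.1 CPM in CK, and none of the 5 was at 0 in any library. CK replicate 2 was below Cd replicate 1 and Cd + N replicate 3. The log2 fold changes of Cd + N against CK were negative in 5 of 5 with a median of -1.73, and those of Cd against CK were negative in 5 of 5 with a median of -1.71. In Cd + N against Cd the median was -0.26. None passed the adjusted threshold by edgeR, where the smallest adjusted p over the 3 comparisons was 0.308, or by DESeq2. The 1 unadjusted p under 0.05 was in Cd against CK, lower in Cd, where 9.88% of all tested genes had one. The entry genes were positive in 9 of 9 in Cd + N against CK, where this list was negative in 5 of 5, none past the adjusted threshold by edgeR. The share of vein tissue in the leaf samples was not measured, and its part in the levels of the entry genes was not tested.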

How the data were processed

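RNA from leaves was sequenced in 9 libraries, and the sample labels gave each library's group and replicate number. The submitters' processing notes name Bowtie2 2.0.6 and TopHat2 2.0.12. How reads were counted, whether by strand and on which annotation, is not given in the sources used here. In the series the authors deposited unnormalized integer counts for each gene and FPKM values, which equalled counts scaled to gene length and library total within a relative tolerance of 1e-06. All recovered lengths were multiples of 3. The members and lists were chosen with earlier results of these data known.

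The tests used edgeR 4.0.16 in R 4.3.3 (TMM factors of 0.912 to 1.10, filterByExpr with a minimum count of 10 and total of 15, quasi-likelihood test without a block, all 9 libraries in 1 fit), and p-values were adjusted by Benjamini-Hochberg over 27378 genes. Standard errors are approximate and were derived from the F statistic. A prior count of 2 was used for log2 CPM. Correlations were tested over all 362880 arrangements of the libraries with numpy 2.4.6. The edgeR fit was tested on simulated counts for Cd + N against Cd, and the correlation test was checked on a pair of identical ranks. The other fits had no such check. Plots were drawn with matplotlib 3.10.9.

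Alternatives were DESeq2 1.42.0, upper-quartile factors, no filter, only the 2 groups compared, the replicate block, limma 3.58.1 on log2(FPKM + 1) and log2(FPKM + 0.1) with genes that reached an FPKM of 1 in 3 or more libraries, the first also without this filter, and leaving out each library in turn. Spearman's rho and leaving out each library were added for the correlations after the data were seen. In CK and Cd + N, libraries of the same number deviated together from their group means (r of 0.12 to 0.32 across genes in the 3 pairs, all over 0.1). In the other comparisons 2 of 3 pairs were over 0.1, with r up to 0.40 for CK and Cd and up to 0.44 for Cd and Cd + N. Of the 6 pairs of different numbers, 0 were over 0.1 for CK and Cd, 1 for CK and Cd + N and 2 for Cd and Cd + N. No source says what a number shares. No pair of replicates agreed within sampling noise.

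All 9 members were named, and up to 3 genes of a list by smallest p, of which 2 of the later steps are given here. The closest genes in pattern were the first 3 of each member and the first 5 over all members, of which those given are a part. Lists that need product names (other PAL, C4H and 4CL genes, phenylalanine supply, cytochrome P450 reductase, flavonoid and tannin genes, leaf mesophyll markers) were not analysed here, since no annotation was used, nor were sequences.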

Additional observations from a re-analysis of the deposited data

How the results depend on the processing

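The number of entry genes past the adjusted threshold was 0 in all 3 comparisons and stayed 0 in every alternative except DESeq2, which called 1, PAL4, in Cd + N against Cd and 1, PAL4, in Cd + N against CK. With the replicate block, the number was 0 in each comparison and no call of an entry gene changed. The block moved the count of genes called over the whole table to 1442 in Cd + N against CK (73 without it), 313 in Cd + N against Cd (0 without it) and 4 in Cd against CK (0 without it), and DESeq2 called 2133, 1069 and 627. Limma on log2(FPKM + 1) called 256 genes in Cd + N against CK and 73 in Cd + N against Cd, and with the other FPKM settings it called 130 and 125 in Cd + N against CK. With only the 2 groups compared, 2 genes were called in Cd + N against Cd. Leaving out a library gave 0 to 440 genes in Cd + N against CK, 0 to 22 in Cd + N against Cd and 0 to 499 in Cd against CK.

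PAL4 stayed positive in 17 of 17 alternatives in both Cd + N comparisons. Since its Cd + N libraries were above all others, leaving out a library could hardly turn this sign. Of 453 values of single entry genes, 424 kept their direction and side of the threshold. The near-zero value of 4CL5 in Cd against CK (0.00) turned to -0.0125 with upper-quartile factors, -0.00288 with only the 2 groups, -0.16 with the replicate block, -0.12 with log2(FPKM + 1), with or without the filter, and -0.22 with log2(FPKM + 0.1). Leaving out a library turned the direction in Cd against CK for PAL2 (-0.55 to 0.26), PAL4 (-1.09 to 0.30), PAL5 (-1.16 to 0.81), C4H1 (-0.21 to 0.62), C4H2 (-0.0359 to 0.71) and 4CL5 (-1.06 to 0.35). It did so in Cd + N against Cd for PAL1 (-0.34 to 0.81) and C4H2 (-0.34 to 0.40), and in Cd + N against CK for PAL3 (-0.0376 to 1.11). The cause was not tested. The number of correlated pairs was 25 by Pearson's r, 11 by Spearman's rho and 8 to 31 when a library was left out. PAL5 fell under the filter of the 2 filtered FPKM settings. The precision of the entry genes is limited by 3 libraries per group with a median SD of 0.92 log2 units. Cd replicate 3 held only 1 read on PAL5, 46 on PAL4 and 64 on 4CL3, and counting error was not separated from the spread between libraries.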
